A study of Mus musculus with 4 samples.

Results

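The 10 genes of the Notch pathway were described across the cell classes of 1 single-cell library. They were the receptors Notch1, Notch2, Notch3 and Notch4, the ligand Jag1, and the effectors Hes1, Hey1, Hey2, Heyl and Nrarp, chosen by name from the 18619 genes of the file, and all 10 were found there. The library, LATS1/2 KO 1w, held messenger RNA of stromal cells sorted from the intestine of adult C57BL/6J mice that carried PDGFRb+-CreERT2, a Tomato reporter and both Lats1 f/f and Lats2 f/f, so that tamoxifen deletes both genes in cells that use the Pdgfrb promoter, and cells were taken 1 week later. It is 1 of 4 samples of the series, and the 2 WT samples and the LATS1/2 KO 2w sample were not analysed here. No change caused by the deletion can therefore be read from these values, and all of them describe differences between cells of the same library. Because cells of a library do not replicate a condition, p-values are not given, and every interval below is a 95% interval that covers counting error only. The study gives a pair of mice for each genotype of its single-cell data and split cells by the female transcript Xist. It does not say how many mice gave this library. The file marks 1983 cells M and 2125 cells F.

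Notch receptors sit in the membrane and are activated by ligands on neighbouring cells. On activation they are cut by the gamma-secretase complex, and the freed intracellular domain enters the nucleus, where it binds the DNA-binding protein RBPJ and switches on targets such as the Hes and Hey repressors and Nrarp, which in turn dampens the signal. In blood vessels Notch3 is the receptor best known from mural cells (pericytes and vascular smooth muscle), and Jag1 on neighbouring cells is a ligand of mural receptors. LATS1 and LATS2 are kinases of the Hippo pathway that restrain the coactivators YAP and TAZ, and Amotl2 is a commonly used YAP/TAZ target gene.

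The 4108 cells held 46054627 unique molecular identifiers (UMIs, each counted as 1 captured transcript), with a median of 10726 and a range of 1965 to 35727 per cell. Lats1 was at 14.2 and Lats2 at 53.6 UMIs per 1000000 UMIs (CPM) over all cells, which checks nothing, since reads from transcript ends need not lie in the deleted exons. Cells were put into classes by how many genes of a marker list had a UMI, and the classes are ranges of marker counts rather than proven types. A cell was called mural-like with at least 5 of 8 mural markers (57 cells), and muscle-like with at least 4 of 6 muscle markers (98 cells). The fibroblast classes, named after the clusters of the study, held 2536 villus fibroblast-like, 130 vFB3-like, 621 FB4-like and 193 FB5-like cells, 3480 in all. Another 456 cells reached no cut and 17 reached several, with a median of 19650 UMIs, and these were left out. The mural cut had 12 cells just inside and 11 just outside, and the muscle cut had 46 and 104. None of the 10 Notch genes was a marker.

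Mural-like cells had a median of 7 mural, 3 muscle and 1 villus fibroblast marker, and muscle-like cells a median of 5 muscle, 1 mural and 2 villus fibroblast markers. The leading genes of the mural-like cells included Vtn and Cox4i2, which were on the list, and Adra2a and Gja4, which were not. Rgs5, often used for pericytes, was at 3650 CPM in mural-like cells but also at 658.9 CPM in villus fibroblast-like cells, whose leading genes it joined. Kcnj8 and Abcc9, also known from pericytes, were higher in FB5-like cells (590.2 and 265.4 CPM) than in mural-like cells (44.1 and 39.2 CPM). Muscle-like cells carried the summed villus fibroblast markers at 5349 CPM, against 5728 CPM in villus fibroblast-like cells. Of the endothelial list, mural-like cells held 12 UMIs (29.4 CPM), muscle-like cells 4.25 CPM and villus fibroblast-like cells 1.48 CPM, and immune and epithelial markers had 0 UMIs in mural-like cells. Mural-like cells were also the shallowest class, with a median of 6236 UMIs against 8299.5 in muscle-like and 10299 in villus fibroblast-like cells.

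Among the receptors, Notch3 (ENSMUSG00000038146, chromosome 17, 32120820 to 32166852) had the largest ratio between mural-like cells and fibroblasts. Positions here and below are from GENCODE M21 on mm10. It had 286 UMIs in the 57 mural-like cells, a level of 700.1 CPM (interval 621.3–786.1). Muscle-like cells had 13.8 CPM (7.36–23.6), vFB3-like cells 12.99 (8.14–19.7), villus fibroblast-like cells 5.79 (4.92–6.77), FB5-like cells 2.86 (1.15–5.90) and FB4-like cells 0.731 (0.268–1.59). The mural-like interval lay above that of every other class, whereas neighbours in the order such as muscle-like and vFB3-like cells differed by less than their counting error (ratio 1.06, 0.493–2.21). The mural-like level was 143.9 times (119.5–173.7) that of all fibroblasts together. Mural-like cells, 1.39% of the cells, held 48.2% of all Notch3 UMIs in the library. Free RNA in the droplets was not measured. The 6 UMIs in FB4-like cells limit it to at most 1.59 CPM for Notch3 at their depth, and it can take a larger share of the UMIs in shallower cells.

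Notch1 (ENSMUSG00000026923, chromosome 2, 26457903 to 26516663), a receptor with broad roles in cell fate, was at 71.0 CPM (47.5–102.0, 29 UMIs) in mural-like cells. It was next highest in vFB3-like cells at 24.2 CPM (17.4–32.8), and between 7.07 and 9.57 CPM in the other 4 classes. Among these 4, no neighbours in the order differed beyond counting error, whereas vFB3-like cells were above the next class (2.53, 1.21–5.92). Mural-like cells had 7.87 times (5.20–11.5) the fibroblast level. Notch2 (ENSMUSG00000027878, chromosome 3, 98013527 to 98150361), a close relative of Notch1, had another order. Its highest level was in FB4-like cells at 17.2 CPM (14.5–20.3), within counting error of the next class, muscle-like cells (1.24, 0.703–2.39). Its 4 UMIs in mural-like cells gave 9.79 CPM (2.67–25.1), a ratio to fibroblasts of 0.907 (0.246–2.34). Notch4 (ENSMUSG00000015468, chromosome 17, 34564268 to 34588503), a receptor known from endothelial cells, was near the limit of detection, with 44 UMIs in the library and 2 in mural-like cells (ratio to fibroblasts 5.37, 0.626–20.9). Its level between classes could not be resolved at this depth.

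Jag1 (ENSMUSG00000027276, chromosome 2, 137081456 to 137116644), the ligand, followed the order of Notch3 at the top. Mural-like cells had 188.5 CPM (148.8–235.6, 77 UMIs), muscle-like cells 24.5 (15.5–36.7) and vFB3-like cells 17.7 (11.95–25.3). Villus fibroblast-like cells had 6.86 CPM (5.91–7.92), FB4-like cells 5.603 (4.10–7.47) and FB5-like cells 4.50 (2.25–8.05). The mural-like level was 27.2 times (20.9–35.2) that of the fibroblasts, and the muscle-like and vFB3-like levels did not differ from each other beyond counting error. Receptor and ligand were found in the same cells. Of the 32 mural-like cells with a Jag1 UMI, all 32 also had a Notch3 UMI, as had 56 of the 57 mural-like cells.

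**Figure D1:**
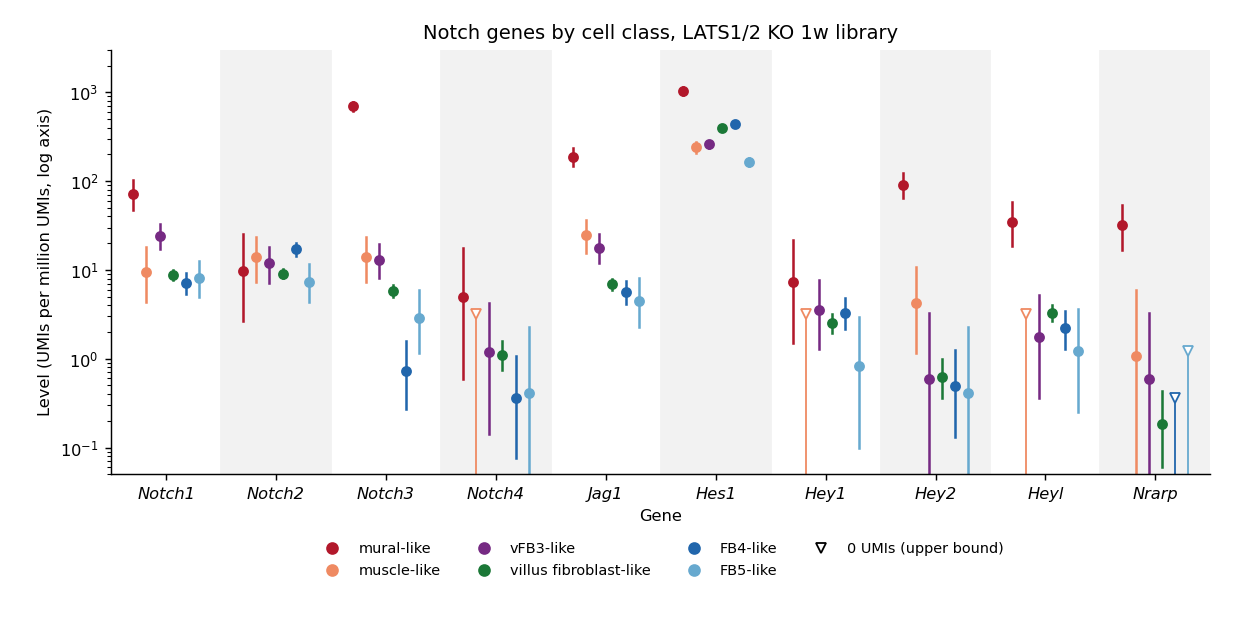
Level of each of the 10 Notch genes (UMIs per 1000000 UMIs, log axis) in the 6 cell classes, with points for the level and bars for the exact 95% Poisson interval. The mural-like points stand highest for 9 of the 10 genes, with Notch3 at 700.1 CPM, and the Notch2 point is highest in FB4-like cells. For Notch2, Notch4 and Hey1 the difference from the next class is within counting error.

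Of the effectors, Hes1 (ENSMUSG00000022528, chromosome 16, 30064384 to 30067796), a repressor that also responds to other signals, was seen in every class. It was at 1031 CPM (934.5–1134) in mural-like cells, 440.8 in FB4-like, 398.6 in villus fibroblast-like, 258.5 in vFB3-like, 239.3 in muscle-like and 164.4 CPM in FB5-like cells. Each step of this order exceeded counting error except that between vFB3-like and muscle-like cells (1.08, 0.918–1.27). The ratio of mural-like cells to fibroblasts was 2.66 (2.41–2.93), far smaller than for Notch3. Immediate early genes such as Fos and Jun, which rise within minutes of stress, were summed to 11350 CPM in mural-like cells, 5814 in FB4-like, 4280 in villus fibroblast-like, 3110 in muscle-like, 1155 in FB5-like and 758 CPM in vFB3-like cells. Their order resembled that of Hes1 in its first 3 classes. When villus fibroblast-like cells were split at the median of this sum, Hes1 was at 583.5 CPM in the upper and 212.9 CPM in the lower part, a ratio of 2.74 (2.63–2.86), and 1.83% of 6054 genes were at least 2-fold higher in that comparison. Notch3 did not follow it (0.822, 0.592–1.14) and neither did Jag1 (1.08, 0.805–1.46). The part of the immediate early genes in the mural-like Hes1 level was not tested.

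Hey2 (ENSMUSG00000019789, chromosome 10, 30832359 to 30842801), a repressor of the Hey family known from vessels and heart, was at 90.6 CPM (63.8–124.8, 37 UMIs) in mural-like cells, 4.25 CPM (4 UMIs) in muscle-like cells and 0.409 to 0.627 CPM in the fibroblast classes. The ratio of mural-like cells to fibroblasts was 155.4 (90.0–274.0). Nrarp (ENSMUSG00000078202, chromosome 2, 25180758 to 25183339), the feedback inhibitor, had 27 UMIs in the whole library, 13 of them in mural-like cells (31.8 CPM, 16.9–54.4) and 6 in the 3480 fibroblasts, a ratio of 209.4 (74.2–671.7). Heyl (ENSMUSG00000032744, chromosome 4, 123233556 to 123249875), a Hey family member described in vascular smooth muscle, was at 34.3 CPM (18.7–57.5) in mural-like cells and 2.86 CPM in fibroblasts, a ratio of 11.97 (6.34–20.9). Muscle-like cells held 0 Heyl UMIs, which allows up to 3 UMIs, and the exact interval of the ratio of mural-like to muscle-like cells started at 7.64. Hey1 (ENSMUSG00000040289, chromosome 3, 8663359 to 8667256), another repressor of the family, was low throughout, with 3 UMIs in mural-like cells and a ratio to fibroblasts of 2.81 (0.571–8.46), an interval that included no difference.

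Some of these ratios depended on which cells were counted. Among cells with 8000 to 14000 UMIs, of which 6 were mural-like, the ratio was 31.7 (0.752–205.8) for Hey2 and 1.73 (1.22–2.38) for Hes1, and Nrarp had 0 mural-like UMIs, with an upper bound of 518.3. Among cells with at most 5% mitochondrial UMIs, Notch1 was at 11.85 (6.65–19.7), Heyl at 6.99 (1.41–21.3) and Nrarp at 562.4 times (107.1–5548) the fibroblast level. Hey2 was at 90.2 times (42.2–192.6) in M and 308.5 times (126.3–859.1) in F cells. Nrarp was at 90.2 (20.75–391.7) and 822.7 times (110.3–36500). For both genes the M and F intervals overlapped. With Seurat clusters as classes, the Notch3 ratio was 95.7 (81.2–112.9). Notch3 and Jag1 kept ratios above 25 under every alternative run.

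Promoter sequence was looked up for the genes whose mural-like level stood furthest above fibroblasts. Of the 10 genes, 7 had a RefSeq promoter window (GRCm38.p6, 250 bases before to 50 bases after the transcription start), and Hes1, Hey1 and Heyl were not searched here. Each window was searched on both strands for TGGGAA and its longer form GTGGGAA, the letters bound by RBPJ, and for GGAATG, the letters bound by the TEAD partners of YAP and TAZ. Hey2 was the only member of the 7 with TGGGAA, which is in 25.6% of all 32851 windows, and it held GTGGGAA (6.38% of windows) at each of 2 places. The first spans bases -207 to -201 on the opposite strand and overlaps GGAATG at -209 to -204, and the other runs from -4 to 3 across the start. GGAATG also occurred in the windows of Notch1 and Notch4, and in 14.7% of all windows. The windows of Notch3, Jag1, Nrarp and Notch2 held none of these letters. The study names the shorter GGAAT as its TEAD sequence, which was not counted here over all windows. The Jag1 window holds GGAAT followed by A. A match is a description of the sequence, not a site shown to be bound. The 4 windows are printed from 250 bases before to 5 after the start, 5′ to 3′ along the gene, with these motifs in capitals, to show the Hey2 matches beside the 3 other genes that were highest over fibroblasts.
Hey2, chr10:30842779-30843033, minus strand: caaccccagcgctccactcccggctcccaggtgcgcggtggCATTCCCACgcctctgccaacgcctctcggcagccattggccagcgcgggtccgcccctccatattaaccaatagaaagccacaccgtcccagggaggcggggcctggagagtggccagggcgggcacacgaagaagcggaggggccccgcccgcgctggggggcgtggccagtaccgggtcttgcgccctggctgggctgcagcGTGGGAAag
Nrarp, chr2:25180508-25180762, plus strand: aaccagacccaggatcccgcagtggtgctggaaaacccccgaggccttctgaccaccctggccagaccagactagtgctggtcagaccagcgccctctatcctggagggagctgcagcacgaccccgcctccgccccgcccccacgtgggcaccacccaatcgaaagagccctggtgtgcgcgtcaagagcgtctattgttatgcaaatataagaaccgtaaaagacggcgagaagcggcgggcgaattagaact
Notch3, chr17:32166886-32167140, minus strand: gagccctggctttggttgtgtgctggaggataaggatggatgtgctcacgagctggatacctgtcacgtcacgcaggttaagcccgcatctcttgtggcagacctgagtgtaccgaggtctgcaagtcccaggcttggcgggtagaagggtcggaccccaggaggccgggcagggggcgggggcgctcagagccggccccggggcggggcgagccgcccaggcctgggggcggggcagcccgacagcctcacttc
Jag1, chr2:137116516-137116770, minus strand: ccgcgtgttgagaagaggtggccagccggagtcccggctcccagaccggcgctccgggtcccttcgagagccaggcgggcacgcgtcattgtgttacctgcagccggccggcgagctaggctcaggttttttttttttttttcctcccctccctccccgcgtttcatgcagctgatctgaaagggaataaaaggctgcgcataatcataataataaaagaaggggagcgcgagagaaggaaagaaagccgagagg

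With every cell thinned to 5000 UMIs, 37 of the 57 mural-like and 2498 of the 2536 villus fibroblast-like cells were deep enough, and 94.6% (81.8–99.3) of mural-like cells had a Notch3 UMI. The share was 5.43% in vFB3-like, 3.12% in muscle-like, 2.96% in villus fibroblast-like and 0.162% in FB4-like cells. Without thinning the shares were 98.2% in mural-like, 12.31% in vFB3-like, 4.08% in muscle-like, 5.28% in villus fibroblast-like and 0.805% in FB4-like cells, with median depths of 6236, 12819.5, 8299.5, 10299 and 12531 UMIs. Jag1 was found in 51.4% (34.4–68.1) of thinned mural-like cells, and Notch1 and Hey2 in 40.5% (24.8–57.9) each. Nrarp was found in 16.2% and Heyl in 13.5%. Within the mural-like class Notch3 ranged from 0 to 12 UMIs per cell with a median of 5, and 45 of the 57 cells had 3 or more. Mural-like cells had a UMI of a median of 3 of the 10 genes (1 to 7), against 1 (0 to 5) in villus fibroblast-like cells.

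**Figure D2:**
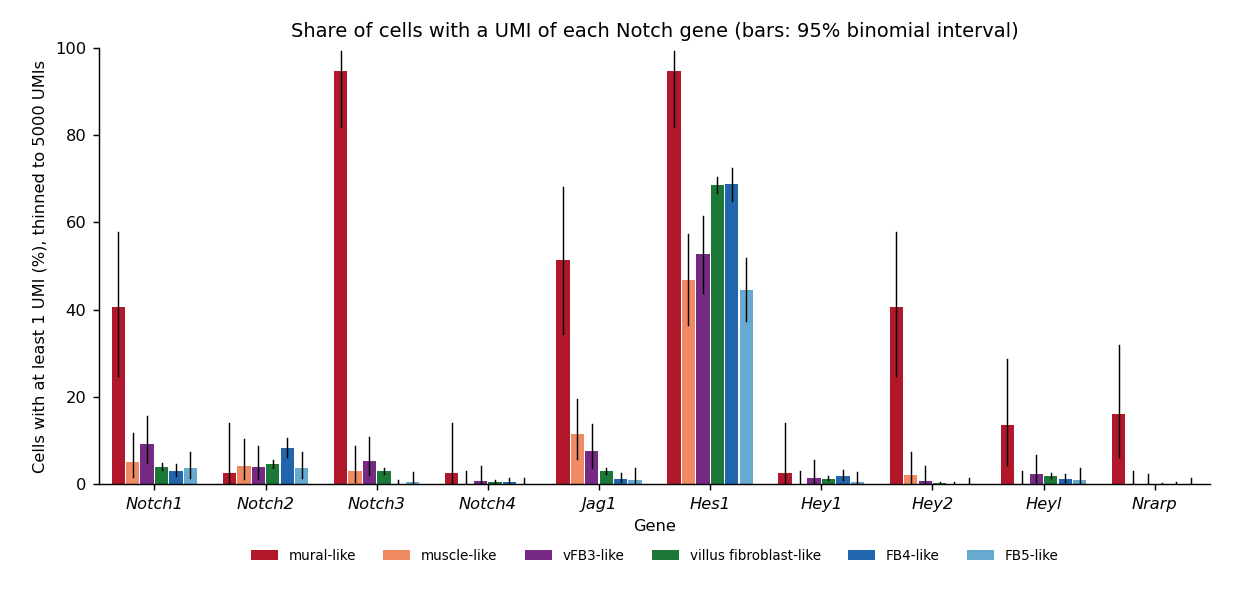
Percent of cells with at least 1 UMI of each gene after thinning to 5000 UMIs per cell, for the 6 classes, with black bars for the exact 95% binomial interval. Notch3 and Hes1 both reach 94.6% of mural-like cells, but Hes1 is also found in 44.5% to 68.8% of the other classes.

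Counted over the genes whose 2 levels averaged at least 20 CPM, 736 of 6316 genes (11.7%) were at least 2-fold higher in mural-like cells than in fibroblasts. All 5 Notch genes that reached this floor (Notch1, Notch3, Jag1, Hes1 and Hey2) were among them, but 4 of the 5 reached it through their mural-like level and so had to differ. At a floor of 2 CPM, 9 of the 10 were at least 2-fold higher, with a background of 14.2%, but Hey2, Nrarp and Notch4 reached that floor through their mural-like level, and the intervals of Notch4 and Hey1 included 1. Of 38 other pathway genes found in the file, 22 reached 20 CPM, 1 was at least 2-fold higher and 2 at least 2-fold lower (background 9.37%), and their median ratio was 0.979 against 1.06 for all genes. Maml2, a coactivator of the Notch complex, was higher (39.2 against 14.8 CPM, ratio 2.64, 1.501–4.33). Psen2, a catalytic subunit of gamma-secretase, was lower (0.399, 0.129–0.934), as was Numbl, a relative of the Notch inhibitor Numb (0.407, 0.163–0.840). Rbpj was at 53.9 CPM in mural-like cells and 69.2 CPM in fibroblasts (0.778, 0.487–1.18). Of the other ligands, Dll1 had 12.24 and 12.97 CPM. Dll3, Dll4 and Jag2 had 0 UMIs in mural-like cells, which allows up to 3 UMIs or 7.34 CPM, and 2, 1 and 7 in fibroblasts. No difference can be read from these counts.

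The mural-like class was then divided in 4 ways to see whether the Notch genes followed a part of it. Cells marked M and F had Notch3 at 735.3 (621.3–864.3) and 666.3 CPM (560.2–786.8). The 7 mural-like cells that also passed the muscle cut had 712.6 CPM against 697.7 CPM in the other 50, a ratio of 1.02 (0.731–1.401). Hes1 was lower in these 7 cells (788.4 against 1077 CPM, 0.732, 0.537–0.981), and Hey2 had a ratio of 0.458 (0.0901–1.46). Nrarp had 0 UMIs in these 7 cells, which allows up to 45.5 CPM, against 37.95 CPM (13 UMIs) in the other 50. Split at the median of Acta2, the smooth muscle actin, the 29 cells at or above it had Notch3 at 786.8 and the 28 below at 618.4 CPM (1.27, 1.002–1.62), with Hes1 at 1165 and 904 CPM (1.29, 1.06–1.57). Hey2, Heyl and Nrarp had ratios of 1.96, 1.91 and 1.70 in this split, and Notch1 one of 0.648, each with an interval that included 1, and 8.45% of 6154 genes were at least 2-fold higher. None of the 7 Notch genes at 20 CPM or above was. Adamdec1, a villus fibroblast marker, was at 131.1 CPM in the upper and 856.2 CPM in the lower cells, and its part in these ratios was not tested. The 35 mural-like cells with an Amotl2 UMI had Notch3 at 743.3 CPM against 628.8 in the 22 without (1.18, 0.921–1.53), while Hes1 was lower (932.1 against 1193 CPM, 0.781, 0.642–0.953). These cells were not thinned, and median depth was 6566 with and 5681 UMIs without an Amotl2 UMI, with immediate early genes at 10460 and 12820 CPM, whose part was not tested.

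Muscle-like cells had a narrower difference from fibroblasts. Jag1 was at 24.5 against 6.92 CPM, a ratio of 3.54 (2.21–5.42), and it was seen in 18 of the 98 cells. Hes1 was lower at 239.3 against 386.9 CPM (0.619, 0.540–0.706), at 0.362 times (0.263–0.486) in M cells and 0.776 times in F cells. Among cells with at most 5% mitochondrial UMIs the Hes1 ratio was 0.825 (0.618–1.08), an interval that included 1. Notch1 (1.06, 0.481–2.04) and Notch2 (1.28, 0.677–2.21) were within counting error of the fibroblasts, although Notch2 was at 2.28 times (1.03–4.40) among cells of 8000 to 14000 UMIs, and Hey1, Heyl and Notch4 had 0 UMIs. Notch3 was at 2.84 times (1.49–4.98) and Hey2 at 7.30 times (1.84–21.4) the fibroblast level, but both rested on few cells. All 13 Notch3 UMIs lay in 4 cells, each marked F, and these had a median of 3 mural markers and up to 4, against 1 in the 94 other muscle-like cells. With a stricter marker cut, with Seurat clusters as classes or in M cells alone, muscle-like cells held 0 Notch3 and 0 Hey2 UMIs, with upper bounds for the Notch3 ratio of 1.21, 0.812 and 2.68. Of the Notch genes only Hes1 reached 20 CPM here and it differed by less than 2-fold, while 4.82% of 6219 genes were at least 2-fold higher and 4.76% lower. At 2 CPM 6 Notch genes were counted and 3 of them, Notch3, Jag1 and Hey2, were at least 2-fold higher, with a background of 7.99%, although Hey2 reached this floor through its muscle-like level. None of the 21 other pathway genes at 20 CPM differed 2-fold. At 2 CPM 1 of 29 was at least 2-fold higher, Dtx1, a regulator of Notch (2.33, 0.837–5.24), and 1 lower, the ligand Dll1 (5.32 against 12.97 CPM, 0.410, 0.133–0.963), with a background of 8.14% for lower genes.

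**Figure D3:**
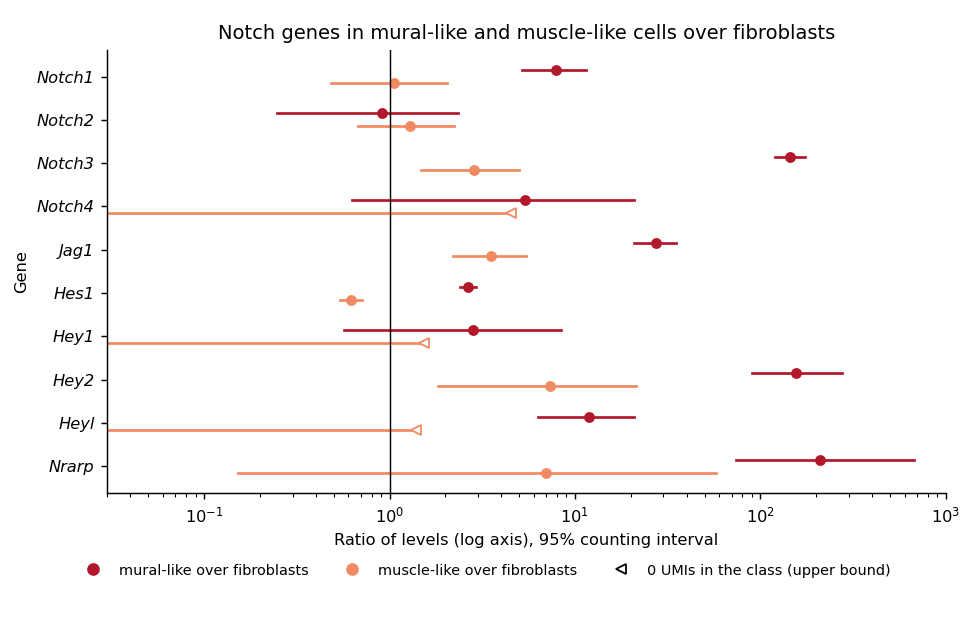
Ratio of the level of each gene in mural-like (dark red) and muscle-like cells (orange) to that in all fibroblasts (log axis), with exact conditional 95% intervals and a line at 1. Notch3, Jag1, Hey2 and Nrarp lie above 25 in mural-like cells, while Hes1 lies above 1 in mural-like and below 1 in muscle-like cells.

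Mural-like and muscle-like cells, both contractile, were also compared with each other. Mural-like cells had 50.6 times (29.1–96.3) the Notch3 level, 21.3 times (7.65–82.2) that of Hey2, 7.71 times (4.78–12.9) that of Jag1, 7.42 times (3.42–17.8) that of Notch1 and 4.31 times (3.65–5.09) that of Hes1. Notch2 did not differ beyond counting error (0.708, 0.168–2.29). In this comparison 10.9% of 6391 genes with a mean of at least 20 CPM were at least 2-fold higher in mural-like cells. Notch1, Notch3 and Hey2 reached that floor through their mural-like level and so had to differ.

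The fibroblast classes differed from each other on a smaller scale. The vFB3-like cells, a villus class marked by P2rx1 and Mmp10, were above villus fibroblast-like cells for Notch1 (2.77, 1.94–3.87), Jag1 (2.58, 1.70–3.81) and Notch3 (2.24, 1.37–3.52), and below them for Hes1 (0.649, 0.588–0.714). At a floor of 2 CPM, 5.67% of genes were at least 2-fold higher in vFB3-like cells. FB4-like cells, marked by Ackr4 and Cilp, had more Notch2 (1.89, 1.52–2.33) and less Notch3 (0.126, 0.0457–0.281) than villus fibroblast-like cells, with 4.17% of genes at least 2-fold lower at 2 CPM. Notch3 reached that floor through its villus fibroblast-like level and so had to differ. FB5-like cells, marked by Sox6 and Bmp7, had Hes1 at 0.412 (0.372–0.456) of the villus fibroblast-like level, with 6.28% of genes at least 2-fold lower at 20 CPM. In the same cells the ligand Dll1 was at 3.68 against 14.97 CPM (0.246, 0.112–0.472), and Hes6, which counters Hes1, was at 60.5 against 22.9 CPM (2.64, 2.19–3.16). They were picked from 28 other pathway genes at 2 CPM, of which 1 was at least 2-fold higher and 2 lower. The median ratio of the 28 was 0.938 against 1.02 for all genes. Immediate early genes were at 758 CPM in vFB3-like and 1155 CPM in FB5-like cells against 4280 CPM in villus fibroblast-like cells. Hes1 had another order, with 258.5 CPM in vFB3-like and 164.4 CPM in FB5-like cells. Muscle-like cells had Hes1 at 239.3 CPM with immediate early genes at 3110 CPM. The part of the immediate early genes in these Hes1 levels was not tested.

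To follow the Notch genes along a YAP/TAZ readout, villus fibroblast-like cells were thinned to 5000 UMIs and grouped by their Amotl2 UMIs. There were 1502 cells with 0, 595 with 1, 244 with 2 and 157 with 3 or more. Notch3 was at 4.32 CPM (3.35–5.49), 5.85 (4.16–7.998), 8.35 (5.35–12.4) and 13.6 CPM (8.86–19.9) along this order, from 67, 39, 24 and 26 UMIs. Jag1 was at 5.29 (4.20–6.56), 6.30 (4.54–8.52), 12.5 (8.77–17.3) and 13.05 CPM (8.44–19.3). The highest group exceeded the lowest 3.14 times (1.92–5.01) for Notch3 and 2.47 times (1.51–3.90) for Jag1. Of the other YAP/TAZ targets, Ajuba was 3.38 times, Lats2 2.31 times, Cyr61 2.27 times and Ctgf 1.96 times higher, and Axl was at 0.974 times. Ankrd1 had 0 UMIs in every group.

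The other Notch genes were followed along the same groups. Hes1 was at 403.2, 390.3, 368.1 and 422.7 CPM, with a ratio of 1.05 (0.973–1.13) between the ends. It was 1.16 (1.07–1.27) among cells of 8000 to 14000 UMIs, 1.13 (1.03–1.24) in F cells and 1.104 (1.03–1.18) with Seurat clusters as classes. Notch1 (1.17, 0.685–1.91) and Notch2 (1.19, 0.705–1.91) were within counting error. For Notch1 the direction turned with the immediate early genes, at 2.51 (1.24–4.75) in cells below and 0.539 (0.193–1.22) in cells at or above their median. Heyl had its levels in the opposite order, 4.06, 2.70, 1.74 and 1.57 CPM, from 63, 18, 5 and 3 UMIs, and the ratio of 0.386 (0.0774–1.18) did not exceed counting error, while with Seurat clusters it was 0.321 (0.0648–0.977). Hey2 had 14 UMIs in the lowest and 0 in the highest group, and the interval of its ratio reached 2.44 and so included 1. Only Hes1 reached 20 CPM, where 2.3% of 6087 genes were at least 2-fold higher and 0.756% lower. At 2 CPM, 7 Notch genes were counted, of which 2 were at least 2-fold higher and 1 lower, with backgrounds of 3.28% and 2.88%. None of the 20 other pathway genes at 20 CPM differed 2-fold.

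Other features of these groups were measured beside the Notch genes. The mural markers other than Rgs5 were at 35.3, 33.2, 29.6 and 33.9 CPM along the order. No cell of the upper 3 groups had 4 mural markers, and cells with at least 5 were kept out of this class by its definition. Median depth went from 9944 to 12015 UMIs, the share marked F from 706 of 1502 to 100 of 157 cells, and the summed villus fibroblast markers from 5990 to 4877 CPM. The part of each of these features in the result was not tested. Within M cells the Notch3 ratio was 5.39 (2.71–10.2), and within F cells it was 1.97 (0.903–3.97), an interval that included 1. The Jag1 ratio was 1.72 (0.597–4.09) in M cells, an interval that included 1, and 2.84 (1.56–4.99) in F cells. With thinning to 2000 UMIs only 16 cells had 3 or more Amotl2 UMIs, and these held 1 Jag1 and 3 Notch3 UMIs, ratios of 0.731 (0.0184–4.14) and 2.80 (0.569–8.43), so that the direction for Jag1 turned.

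The same grouping of FB4-like cells gave 358, 145, 62 and 54 cells. Jag1 was at 3.10 (1.69–5.20), 6.65 (3.54–11.4), 11.7 (5.85–20.97) and 10.15 CPM (4.38–20.01), a ratio between the ends of 3.28 (1.19–8.37). Notch3 was too low to follow, with 2, 1, 2 and 1 UMIs. Hes1 was at 460.4, 457.6, 412.2 and 324.9 CPM, and here its ratio was below 1 (0.706, 0.617–0.804). Immediate early genes went from 6029 to 4618 CPM along the same order, the summed villus fibroblast markers from 1941 to 1235 CPM, median depth from 12066 to 13820 UMIs and the share marked F from 184 of 358 to 40 of 54 cells. Their part in these ratios was not tested. In FB4-like cells 5.77% of genes were at least 2-fold higher at a floor of 2 CPM.

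**Figure D4:**
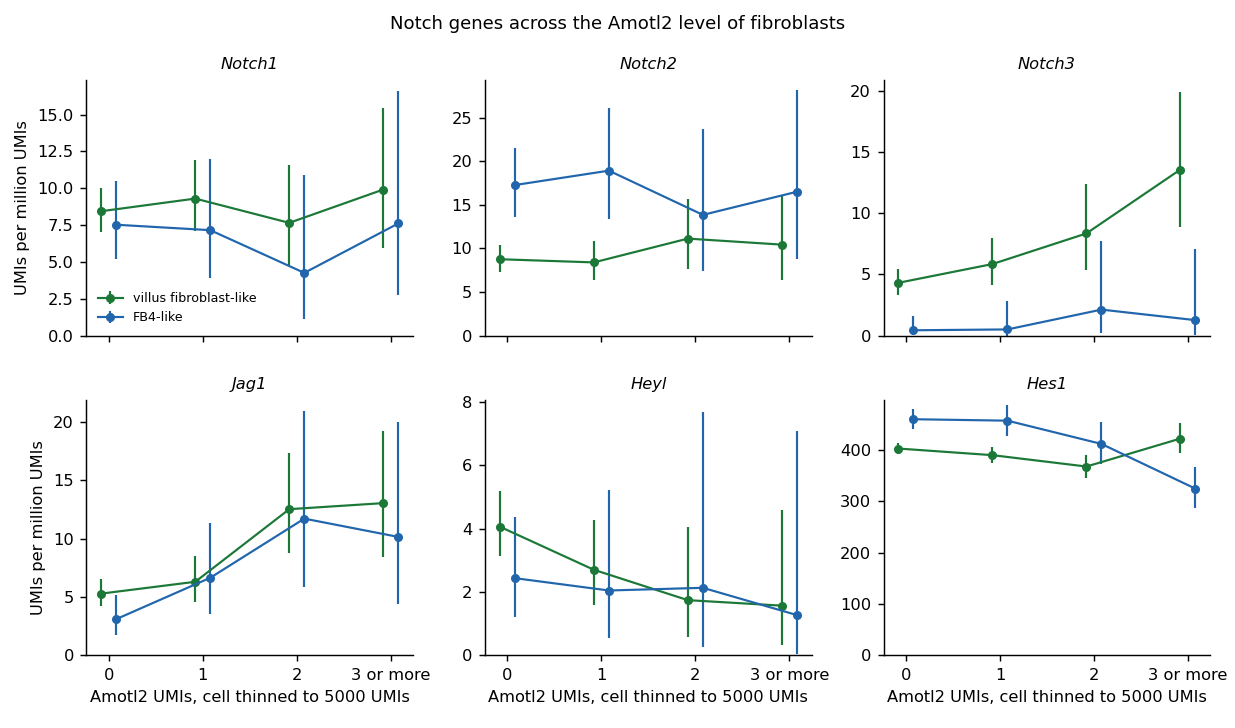
Levels of Notch1, Notch2, Notch3, Jag1, Heyl and Hes1 (UMIs per 1000000 UMIs) in villus fibroblast-like (green) and FB4-like cells (blue) with 0, 1, 2 and 3 or more Amotl2 UMIs after thinning to 5000 UMIs, with exact 95% Poisson intervals. Notch3 goes from 4.32 to 13.6 CPM in villus fibroblast-like cells and Jag1 from 3.10 to 11.7 and 10.15 CPM in FB4-like cells, while Hes1 stays between 368.1 and 422.7 CPM in villus fibroblast-like cells.

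For the 5 members with at least 200 UMIs, the genes most alike in pattern over the 6 classes were listed by Pearson's r of log2(CPM + 10). The 3 closest were Vps33a (r = 0.997), Fam241a and Wdr70 for Notch3, and Trpc1 (0.997), Rasal2 and Mpp5 for Jag1. For Notch1 they were Mrps6 (0.999), Ino80e and Ccdc86, for Hes1 Efna2 (0.993), Furin and Agtr1a, and for Notch2 Rarg (0.957), Llgl1 and Slc16a1. Of these, Fam241a was at 208.1 CPM in mural-like cells against 2.07 to 9.57 CPM in the other classes, and Rasal2 at 119.9 against 11.04 to 22.3 CPM. The first-ranked genes differed less, with Vps33a at 29.4 against 9.82 to 11.8 CPM and Trpc1 at 78.3 against 18.4 to 28.7 CPM. A high r therefore does not mean a difference of the same size. All classes come from the same library, a single high class can set r over 6 points, and r is given as a description.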

How the data were processed

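Sorted stromal cells were measured with a 10x Chromium 3′ v3 kit. Per the labels and methods, the authors aligned reads to mm10 with Cell Ranger 3.0.2, used Seurat (3.0.1 in the labels, another version in the methods), kept cells with 1000 to 6000 genes and at most 7% mitochondrial UMIs, and removed immune and endothelial cells. The authors deposited natural log values, ln(1 + UMIs per 10000 UMIs of the cell). Undoing the log gave whole UMIs for 100.00% of the 13789523 values above 0 (tolerance 0.001), and these recovered counts replaced the raw counts the design had assumed. Columns marked M and F shared 0 barcodes and were treated as 1 library. The authors' upper limit on genes was their doublet filter. Scrublet (scanpy 1.11.5) called 8 cells (0.195%), too few to work, so none was removed in the values reported.

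Levels are UMIs per 1000000 UMIs (CPM) of a class, with exact Poisson intervals, ratios of 2 counts have exact intervals from the conditional binomial distribution, and shares have Clopper-Pearson intervals, all at 95% and for counting error only (scipy 1.17.1). The ratio intervals were checked on simulated data. A count of 0 was read as up to 3 UMIs. Class cuts were set after the marker counts had been seen. A cell that passed only the mural and muscle cuts was called mural-like (7 cells), and the remaining cells with at least 3 of 6 villus fibroblast markers were called villus fibroblast-like. Cuts were 4 of 6 for FB4 and FB5 and 3 of 5 for vFB3, and 315, 38 and 73 cells lay just inside against 229, 51 and 265 just outside (870 and 520 for villus fibroblasts). Leading genes were ranked by fold over other cells among genes in at least 30% of the class and 15 percentage points more than elsewhere. The named genes were the 10 members, other pathway genes that differed 2-fold or, for Rbpj and the ligands, for their role, fixed YAP/TAZ target and immediate early genes, and for each member with at least 200 UMIs the 3 most alike genes that mark no class. Members, lists and comparisons were chosen with earlier results of these data known. The floor of 2 CPM was added after the data had been seen, as were the splits of mural-like cells and the split by immediate early genes. Alternatives were cells of 8000 to 14000 UMIs, at most 5% mitochondrial UMIs, M or F cells, 2 doublet filters, a stricter cut, Seurat 5.3.0 clusters (2000 variable genes, 30 components, resolution 0.5), other thinning and other Amotl2 groups. Gene positions are from GENCODE M21 on mm10 and promoters from RefSeq on GRCm38.p6.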

Additional observations from a re-analysis of the deposited data

How the results depend on the processing

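No paired analysis was possible because a single library was analysed and it shares no replicate number with another group. The count of Notch genes at least 2-fold higher in mural-like cells went from 5 to 9, in muscle-like cells from 0 to 3 and in Amotl2-high cells from 0 to 2 (with 1 lower in place of 0) when the floor was 2 CPM in place of 20, an alternative chosen after seeing the data. In muscle-like cells it was 1 in cells with at most 5% mitochondrial UMIs, and 1 gene was lower among M cells. Of the ratios whose interval excluded 1 in the values reported, those that crossed 1 were Notch3 and Hey2 in muscle-like cells, which were 0 among M cells, with the stricter cut and with Seurat clusters, of Nrarp in mural-like cells, 0 among cells of 8000 to 14000 UMIs, and of Jag1 across the Amotl2 groups, 0.731 with thinning to 2000 UMIs. Each of these held 0 or 1 UMI in the first of the classes compared, and the cause was not tested. Ratios whose interval had included 1 also crossed it, such as Hey1 and Notch4 in mural-like cells, Notch1, Notch2 and Nrarp in muscle-like cells, and Notch1, Notch2, Notch4 and Hes1 across the Amotl2 groups. The count of Notch genes highest in mural-like cells, 9 in the values reported, was 6 among cells of 8000 to 14000 UMIs, 7 with at most 5% mitochondrial UMIs and with the stricter cut, and 8 with Seurat clusters. Of the other values recomputed, 363 single values stayed within the counting interval of the value reported and 56 moved outside it, and 75 counts stayed within 1.5 times. Seurat clusters shared 55 of the 57 mural-like and 71 of the 98 muscle-like cells, but 45 of the 130 vFB3-like cells. Depth limits Notch4, Hey1 and Nrarp, with 44, 130 and 27 UMIs in the library.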
